A study of Mus musculus with 8 samples.

Results

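The genes that copy DNA and supply its building blocks were examined in 2 mouse cell lines, SThdh7/7 and SThdh111/111, on 8 Affymetrix whole-genome expression arrays, 4 of each line. The set held 54 genes of DNA replication and deoxynucleotide synthesis, out of 18193 genes with a probe set of their own, and was chosen by gene function: origin licensing factors, the replicative helicase and its activators, the sliding clamp and its loader, the polymerases, the enzymes that join Okazaki fragments, the enzymes of deoxynucleotide supply, the regulators of S-phase entry and the histone chaperone CAF-1. For 53 of them 1 or more probe sets named that gene alone, 114 probe sets in all, while no probe set of Chaf1a was found. Each gene was read at its brightest probe set over the 8 arrays, and other probe sets with a mean above the floor are given where their call differed. The members, and the further gene lists below, were chosen with earlier results of these data known. Their counts therefore describe these data and are not an independent test.

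SThdh7/7 and SThdh111/111 are conditionally immortalised cells derived from the embryonic striatum of Huntingtin knock-in mice, and the number in each name stands for the polyglutamine length encoded by both Htt alleles. Both lines carry a temperature-sensitive large T antigen of simian virus, a protein that binds the RB family. The labels give the line and a sample number, with no treatment, culture temperature or density. Each group is 1 line, so genotype and any other difference between the lines cannot be told apart. The labels do not say whether the samples were separate cultures, so a p-value reflects the spread among the 4 samples of a line and nothing more. The markers of the labelled tissue were mixed. Of 9 measured markers of striatal projection neurons, Ppp1r1b and Drd1 were below the floor (the level reached by bacterial control probe sets, defined with the arrays) on all 8. Rgs9 and Foxp1 were above it on all 8, Penk on 1 array of SThdh7/7 and all 4 of SThdh111/111, and Drd2, Tac1, Pde10a and Bcl11b on some arrays. Of 7 measured pan-neuronal markers, Map2 was above the floor on all 8 arrays, Syt1, Rbfox3, Nefl and Stmn2 on some, and Snap25 and Tubb3 on none.

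Replication starts at origins that are marked by the origin recognition complex and loaded with an inactive ring of MCM proteins in G1, with the help of Cdc6 and Cdt1. The kinases CDK2 and CDC7 then turn that ring into an active helicase together with Cdc45 and the GINS complex. Polymerases follow, held on the template by the clamp PCNA, and ribonucleotide reductase and thymidine kinase supply deoxynucleotides. Many of these genes are transcribed in bursts before S phase under E2F factors, which RB proteins hold back, so that their transcripts are more abundant in dividing than in resting cells.

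The arrays were scaled alike by the submitters, but SThdh7/7 samples 1 and 2 stood apart, with median intensities of 173.9 and 174 against 136.2 to 147 on the other 6. Bacterial control probe sets reached, at their 95th percentile, 98.65 to 130 on SThdh7/7 arrays and 72.05 to 77.53 on SThdh111/111 arrays. A floor was taken at the highest of these, a log2 intensity of 7.02. The ratio of the 3-prime to the 5-prime control probe set, a check of RNA integrity, was 1.06 to 1.23 for Actb in SThdh7/7 and 1.11 to 1.18 in SThdh111/111. The number of arrays limits the precision.

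Transcripts of the replication machinery were lower in SThdh111/111 almost throughout. Of the 53 measured members 44 fell, against 15.9% of all 17389 named genes, and 29 fell at least 2-fold, against 5.39%. No member was called higher by limma, and 0 members were higher at an unadjusted p under 0.05, while 13.1% of all named genes were called higher. The median difference over the members was -1.11 (log2, SThdh111/111 minus SThdh7/7), beside -0.09 over all named genes. The members were bright: of the 11858 named genes whose mean lay at or above the floor 21.4% were called lower. All 4 SThdh111/111 arrays lay below all 4 SThdh7/7 arrays for 42 members, which held for 17.3% of named genes.

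On each array, the median log2 intensity over the members was 10.09, 10.11, 10.19 and 10.16 in SThdh7/7 and 9.03, 8.94, 9.14 and 9.10 in SThdh111/111. The lines stood well apart, and SThdh7/7 samples 1 and 2 were no higher than samples 3 and 4. Without these 2 samples 44 members were lower, with a median of -1.24. They were not all the same members: Gins1 and Fen1 lost their calls, and Rpa3 and Prim2 gained them. With arrays centred on their own medians, 41 members were lower and the member median was -0.96, beside 0.06 over all named genes. That scaling turned the split of calls over all named genes from 2763 lower and 2276 higher to 1451 lower and 2373 higher. In RNA from whole cultures, fewer cells in S phase and less of these transcripts in each cell cannot be told apart.

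**Figure D1:**
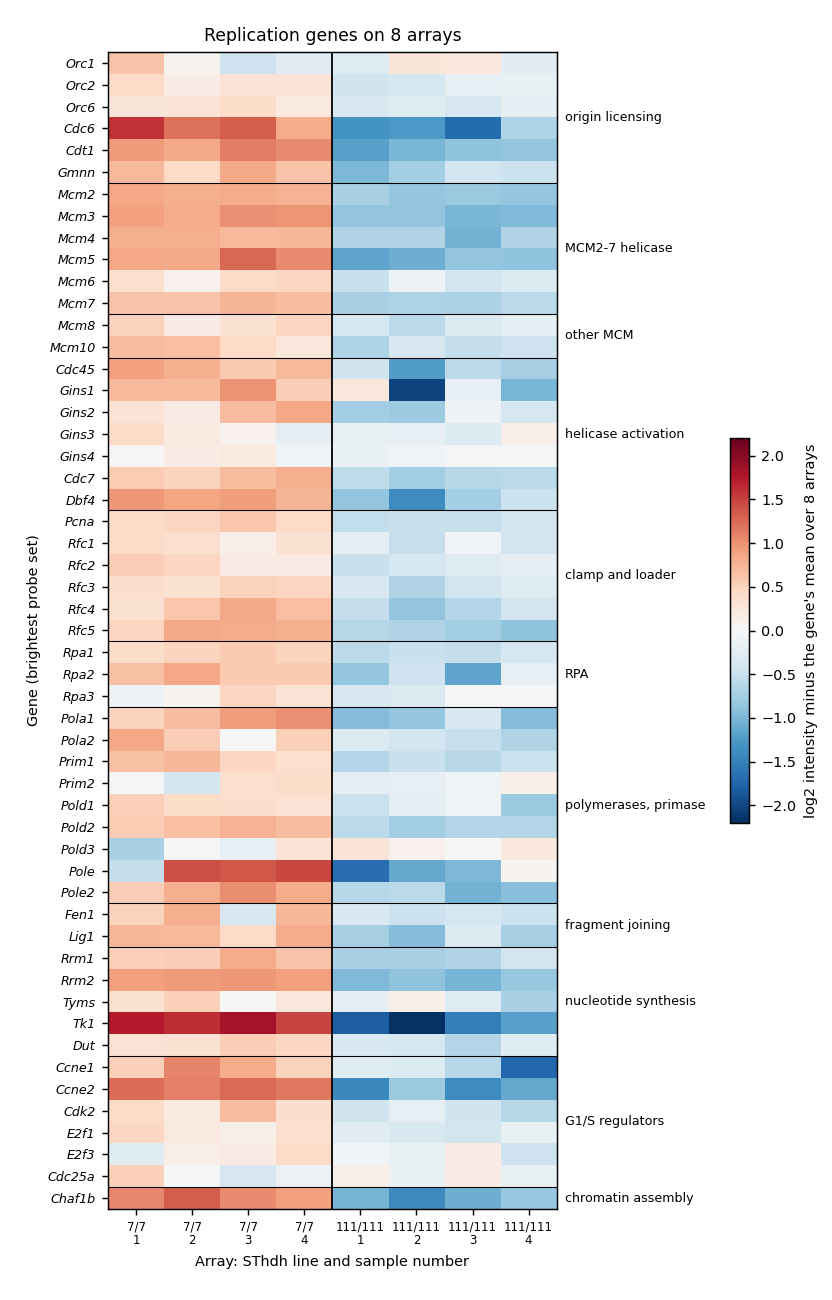
Heat map of the 53 measured members (rows, by role) on 8 arrays (columns, by line and sample number), coloured by log2 intensity minus the gene's own mean over the 8 arrays. The 4 SThdh7/7 columns are red and the 4 SThdh111/111 columns blue for most rows, and Orc1, Cdc25a, Gins4 and Pold3 show little or no such step.

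Because most members were lower together, the letters of their promoters were compared with those of other genes. RefSeq windows of 300 bases (assembly GRCm38.p6, 250 bases before the start site and 50 after) were at hand for 45 of the 54 members, all but Gmnn, Mcm4, Gins1, Gins2, Gins4, Rfc2, Prim2, Pole and Ccne2. Letters of an E2F site (TTTGGCGC, TTTCGCGC, TTTCCCGC or TTTGCCGC, on either strand) were in the windows of 18 members, 40% of those searched, against 2.6% of 27025 genes. The box CCAAT, bound by NF-Y, was in 27 members (60%) against 41.1% of genes, and 12 members (26.7%) held both kinds of letters against 1.26%. The letters TTTGAA or TTCGAA of the cell cycle homology region were in 22.2% of members and 21.7% of genes, and TATAAA in 6.67% and 15.7%. A match is a description of letters, not of binding, and short motifs can overlap one another. The genes compared were all those with a window, not matched to the members in base composition or expression.

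The matches were not limited to members that fell. They were in 13 of the 37 called members with a window and in 5 of the 7 members with a window that were measured and not called. Shown first are 6 members that fell and then 3 that were not called, each on its gene's strand from 5′ to 3′ with up to 20 bases on either side and the E2F letters in capitals. In Mcm5 and Mcm6 a match on the other strand overlaps the one shown, and Mcm6 and Mcm7 hold a further match outside the stretch printed.

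Mcm5, chr8:75109336-75109383, plus strand: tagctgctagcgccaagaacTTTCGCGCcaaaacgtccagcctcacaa
Mcm6, chr1:128359788-128359835, minus strand: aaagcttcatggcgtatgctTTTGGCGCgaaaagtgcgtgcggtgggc
Mcm7, chr5:138172021-138172068, minus strand: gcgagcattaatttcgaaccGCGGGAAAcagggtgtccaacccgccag
Cdc6, chr11:98907993-98908040, plus strand: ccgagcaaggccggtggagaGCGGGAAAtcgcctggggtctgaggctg
Pola1, chrX:93632266-93632313, minus strand: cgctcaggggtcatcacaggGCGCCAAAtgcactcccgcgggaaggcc
Cdk2, chr10:128705164-128705211, minus strand: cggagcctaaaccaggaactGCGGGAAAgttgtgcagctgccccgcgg
Cdc25a, chr9:109875492-109875539, plus strand: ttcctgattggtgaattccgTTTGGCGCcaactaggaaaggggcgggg
Gins3, chr8:95633498-95633545, plus strand: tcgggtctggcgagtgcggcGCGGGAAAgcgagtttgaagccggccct
Orc1, chr4:108579407-108579454, plus strand: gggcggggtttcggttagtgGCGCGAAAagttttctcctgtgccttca

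The stretches shown are all upstream of the start site, so their places do not describe the members as a whole. Over all 18 members with a match, 16 of 24 matches lay within 100 bases of the start site. Among them were matches in Cdt1, Lig1, Mcm3, Pole2 and Rfc3, which fell. The matches of Cdc25a, E2f3, Gins3, Orc1 and Pold3, the uncalled members with a match, all lay within that distance too. Windows of Pcna, Rrm1 and Rrm2 held CCAAT and no E2F match, and the window of Tk1 held neither, although all 4 genes fell.

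Origin licensing factors fell in 5 of 6 cases, with a median difference of -0.95. Cdt1, which loads the MCM ring, measured 12.10, 11.99, 12.29 and 12.20 (log2 intensity) in SThdh7/7 and 9.96, 10.16, 10.28 and 10.31 in SThdh111/111. The lines were far apart, and Cdt1 fell 3.92-fold (difference -1.97, SE 0.09, adjusted p = 2e-09). Geminin (Gmnn), the inhibitor of Cdt1, fell as well, from 9.99, 9.71, 10.11 and 9.89 to 8.29, 8.53, 8.85 and 8.80, a difference of -1.31 ± 0.14 (SE). The loading factor and its inhibitor were thus both lower, without overlap between the lines.

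The subunits of the origin recognition complex moved less. Orc6 measured 10.34, 10.37, 10.49 and 10.29 in SThdh7/7 and 9.74, 9.82, 9.72 and 9.88 in SThdh111/111, a 1.5-fold fall (adjusted p = 0.00014). Orc2 fell by 0.59 on the log2 scale, a call lost after centring of the arrays (difference -0.44, adjusted p = 0.063). Neither of its other 2 probe sets was called (differences -0.25 and -0.49). Orc1 measured 9.29, 8.75, 8.22 and 8.43 in SThdh7/7 and 8.38, 8.94, 8.90 and 8.44 in SThdh111/111 at its brightest probe set. These ranges overlapped (difference -0.01, 95% interval -0.49 to 0.48), but its other probe set was called lower (difference -0.91, adjusted p = 0.0087). The ATPase Cdc6 was at 8.39 ± 0.32 (SD, n = 4) in SThdh7/7 and below the floor on all SThdh111/111 arrays, at least 2.58-fold lower against that floor. Its fitted difference was -2.47 (adjusted p = 4.6e-05).

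All 6 subunits of the MCM2-7 helicase fell, with a median difference of -1.56, and none of them overlapped between the lines. Mcm7 measured 13.37, 13.37, 13.50 and 13.43 (log2 intensity) in SThdh7/7 and 12.04, 12.08, 12.06 and 12.16 in SThdh111/111. It fell 2.52-fold, with a spread within each line of 0.06 and 0.05 (SD, n = 4; adjusted p = 1.1e-09). Mcm2 measured 12.17, 12.13, 12.14 and 12.08 against 10.61, 10.47, 10.51 and 10.47, a 3.06-fold fall. Mcm4 measured 11.93, 11.93, 11.85 and 11.87 against 10.48, 10.47, 10.09 and 10.47, a 2.85-fold fall, with SThdh111/111 sample 3 the lowest.

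The sizes of these falls were not equal. Mcm5 and Mcm3 had differences of -1.99 and -1.85, with 95% intervals of -2.22 to -1.77 and -2.01 to -1.69. At the brightest probe sets, Mcm6 fell by 0.66 on the log2 scale, with an interval of -0.87 to -0.45 that the other 5 did not reach. A dimmer Mcm7 probe set (difference -0.77, interval -1.01 to -0.53) did reach that interval of Mcm6. A second bright Mcm6 probe set fell by 0.87 on the log2 scale. Mcm3 had 5 kept probe sets and Mcm7 had 4, and every one was called lower, over a range of -1.85 to -1.26 for Mcm3 and -1.81 to -0.77 for Mcm7.

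**Figure D2:**
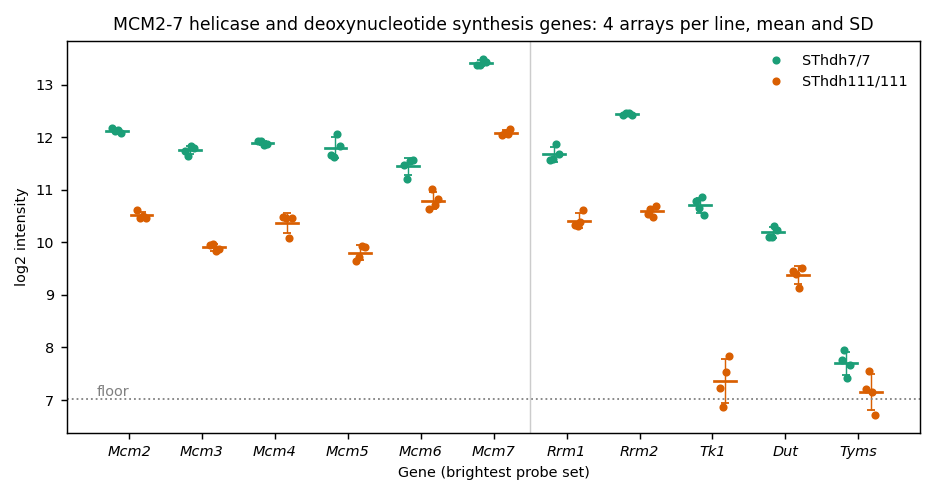
Log2 intensity (y axis) of the MCM2-7 subunits and of the deoxynucleotide synthesis genes (x axis) on the 4 arrays of each line, with the mean as a bar and the SD as whiskers; the dotted line is the floor at 7.02. The lines do not overlap for any gene but Tyms, and Tk1 in SThdh111/111 lies around the floor.

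The other MCM proteins moved the same way. Mcm10, which helps to activate the helicase, measured 9.71, 9.70, 9.47 and 9.29 in SThdh7/7 and 8.35, 8.68, 8.51 and 8.59 in SThdh111/111, a 2.01-fold fall (adjusted p = 7e-05). Its other 2 kept probe sets were dimmer and not called, with differences of -0.95 each. Mcm8, a helicase of recombination repair, measured 8.45, 8.13, 8.29 and 8.43 against 7.56, 7.37, 7.63 and 7.74. That fall of 0.75 on the log2 scale did not pass after centring (difference -0.60, adjusted p = 0.072).

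Of the 7 genes that activate the helicase 5 fell, with a median difference of -1.27. Dbf4, the regulatory subunit of the CDC7 kinase, measured 10.74, 10.65, 10.71 and 10.54 in SThdh7/7 and 8.92, 8.40, 9.04 and 9.31 in SThdh111/111, a 3.35-fold fall (adjusted p = 1.5e-06). The kinase gene Cdc7 fell 2.41-fold and Cdc45, which joins the MCM ring in the active helicase, 2.81-fold. Both partners of the kinase were therefore lower.

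The 4 GINS subunits, which form 1 complex, did not move as a unit. Gins2 measured 10.26, 10.13, 10.63 and 10.81 in SThdh7/7 and 9.21, 9.15, 9.84 and 9.59 in SThdh111/111, a fall of 1.01 on the log2 scale (95% interval -1.38 to -0.63). Gins4 measured 11.15, 11.29, 11.34 and 11.06 against 10.98, 11.06, 11.09 and 11.08, with overlap between the lines. Its difference was -0.16 with an interval of -0.32 to 0.01 (adjusted p = 0.174), so a change as large as that of Gins2 lay outside it.

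Gins3 was also not called. It measured 9.03, 8.83, 8.70 and 8.40 in SThdh7/7 and 8.45, 8.44, 8.32 and 8.73 in SThdh111/111 (difference -0.25, interval -0.61 to 0.10). Gins1 spread widely in SThdh111/111, at 8.05, 5.79, 7.63 and 6.79, with 2 arrays below the floor, against 8.34 to 8.79 in SThdh7/7. With those arrays set to the floor the difference, then a bound, was -1.11, and the call of Gins1 was lost without SThdh7/7 samples 1 and 2 (difference -1.50, adjusted p = 0.077).

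All 6 genes of the sliding clamp and its loader fell. Pcna, the ring that tethers polymerases to DNA, measured 13.98, 14.02, 14.16 and 14.00 in SThdh7/7 and 13.02, 13.07, 13.05 and 13.14 in SThdh111/111. The fall was 1.95-fold (difference -0.97 ± 0.06, SE, adjusted p = 4.6e-08), beside an SD of 0.08 and 0.05 within the lines.

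Among the loader subunits, Rfc5 measured 10.46, 10.82, 10.80 and 10.77 in SThdh7/7 and 9.36, 9.32, 9.23 and 9.10 in SThdh111/111, a 2.75-fold fall. Rfc2 measured 11.26, 11.19, 10.89 and 10.89 against 10.22, 10.33, 10.44 and 10.50, a 1.61-fold fall. Rfc4 and Rfc3 fell 2.33-fold and 1.81-fold. Rfc1, the large subunit, fell by 0.62 on the log2 scale at its brightest probe set, while its other 2 were not called (differences -0.16 and -0.12).

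The single-strand binding protein RPA, a trimer, showed falls of 2 subunits. Rpa1 measured 13.42, 13.51, 13.59 and 13.51 in SThdh7/7 and 12.44, 12.53, 12.48 and 12.62 in SThdh111/111, a 1.99-fold fall with no overlap. Rpa2 measured 9.67, 9.88, 9.60 and 9.61 against 8.18, 8.58, 7.87 and 8.85, a 2.5-fold fall, and its second probe set was also called lower (difference -1.45). Rpa3 measured 10.43, 10.61, 11.02 and 10.85 against 10.20, 10.23, 10.51 and 10.53, and the lines overlapped.

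The difference of Rpa3 was -0.36 (95% interval -0.63 to -0.09) and was not called (adjusted p = 0.060). It was called without SThdh7/7 sample 1 (-0.46, adjusted p = 0.015) and without SThdh7/7 samples 1 and 2 (-0.57, adjusted p = 0.0050). With all 8 arrays, Rpa3 was also called with array weights (-0.41, adjusted p = 0.028), with the replicate block (adjusted p = 0.0093) and with a filter at log2 8 (adjusted p = 0.035), so its call depended on the setting.

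**Figure D3:**
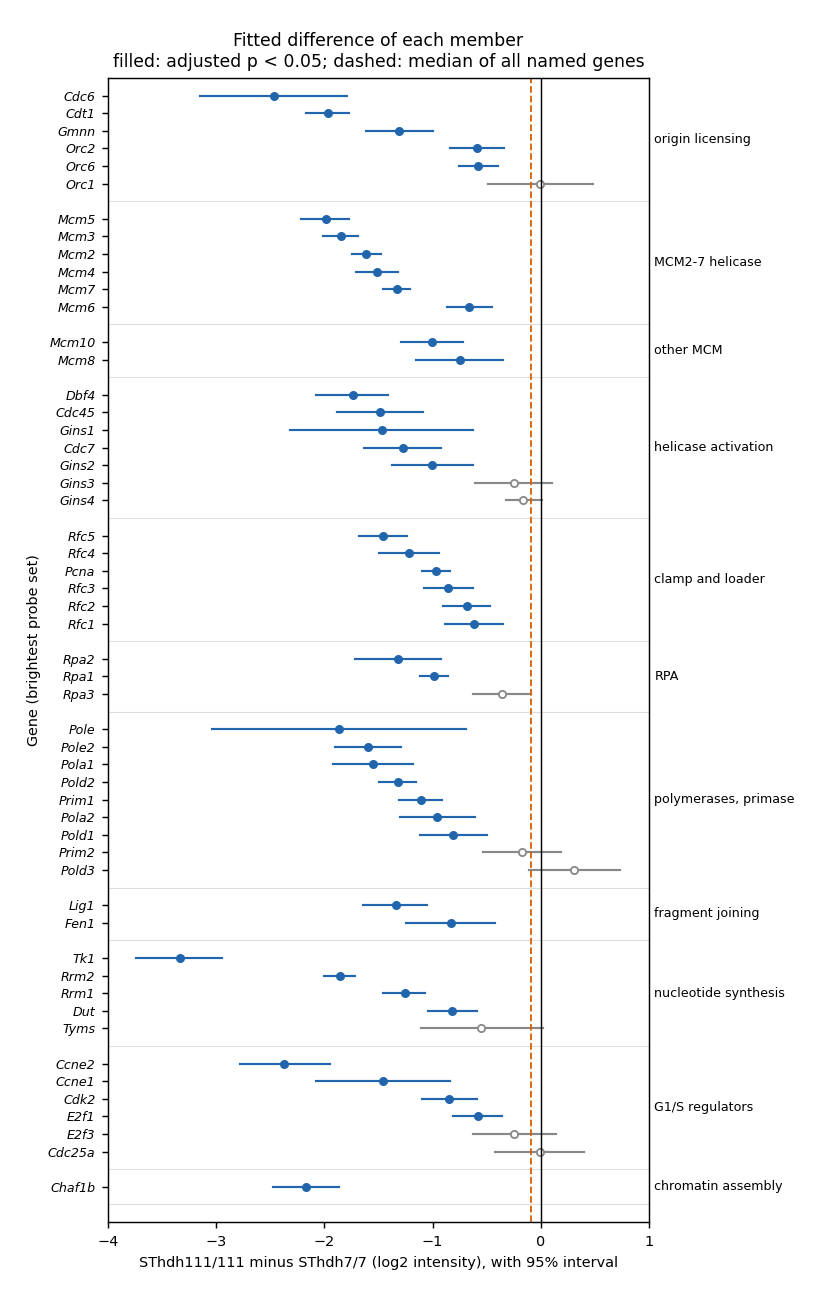
Fitted difference of each member, SThdh111/111 minus SThdh7/7 (x axis, log2 intensity), with its 95% interval, by role; filled blue points passed an adjusted p under 0.05, open grey points did not, and the dashed line is the median of all named genes, -0.09. Of the 53 points 52 lie below 0, and the 9 open points lie furthest right within their roles.

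Of the 9 polymerase and primase genes 7 fell, with a median difference of -1.11. Pold2, a subunit of the lagging-strand polymerase delta, measured 10.92, 11.03, 11.13 and 11.05 in SThdh7/7 and 9.78, 9.60, 9.72 and 9.72 in SThdh111/111, a 2.51-fold fall (adjusted p = 3e-08). Pold1, the catalytic subunit, measured 10.03, 9.91, 9.90 and 9.82 against 9.03, 9.29, 9.41 and 8.69, a 1.75-fold fall, while its other probe set was not called (difference -0.38, adjusted p = 0.141). Pold3 measured 7.94, 8.64, 8.47 and 8.96 against 8.94, 8.75, 8.66 and 8.88, the 1 member with a difference above 0 (0.31, interval -0.11 to 0.73, adjusted p = 0.319).

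The subunits of polymerase delta thus differed in their calls. At its brightest probe set, the interval of Pold3 did not reach those of Pold1 (-1.12 to -0.50) and Pold2. Neither of the other Pold3 probe sets was called (differences -0.10 and -0.96). The interval of the first of these, -0.70 to 0.49, did reach that of Pold1. The primase subunit Prim1 measured 10.97, 11.05, 10.78 and 10.69 in SThdh7/7 and 9.68, 9.82, 9.70 and 9.85 in SThdh111/111, a 2.16-fold fall. Its partner Prim2 measured 9.47, 9.08, 9.86 and 9.89 against 9.27, 9.31, 9.40 and 9.64 at its brightest probe set, with overlap (difference -0.17, adjusted p = 0.548). A second Prim2 probe set, measured at 9.69 to 9.94 in SThdh7/7 and 8.33 to 8.53 in SThdh111/111, was called lower (difference -1.41, adjusted p = 4.6e-07), so the probe sets of Prim2 disagreed. Without SThdh7/7 samples 1 and 2 the brightest one was also called (difference -0.47, adjusted p = 0.021).

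Polymerase alpha, which extends the primers, was lower in both measured subunits, Pola1 by 2.93-fold and Pola2 by 1.94-fold. Pola1 had a dim second probe set with a difference of 0.66 ± 0.59 (SE), and the mean over both was -0.45 and not called (adjusted p = 0.426). Of polymerase epsilon, which copies the leading strand, Pole2 fell 3.02-fold. The catalytic gene Pole was dim, exceeding the floor on 3 of 4 arrays of SThdh7/7 and on none of SThdh111/111. Against the floor it was at least 1.3-fold lower. Its fitted difference was -1.87 (adjusted p = 0.023), and the lines overlapped. With low values set to the floor Pole was not called (difference -0.65, adjusted p = 0.081). Nor was Pole called after quantile normalization or after centring of the arrays (adjusted p = 0.051 in each). Its call was lost in 5 of the 8 fits with 1 array left out: without SThdh7/7 sample 2, 3 or 4 (differences -1.70, -1.72 and -1.69) and without SThdh111/111 sample 1 or 2 (-1.62 and -1.80).

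Both genes that finish Okazaki fragments fell. Lig1, the DNA ligase, measured 10.46, 10.43, 10.15 and 10.54 in SThdh7/7 and 9.00, 8.77, 9.43 and 9.00 in SThdh111/111, a 2.54-fold fall. The flap nuclease gene Fen1 measured 11.58, 11.86, 10.71 and 11.79 against 10.73, 10.59, 10.68 and 10.60, where the lines overlapped because of SThdh7/7 sample 3 (1.78-fold lower, adjusted p = 0.0057). Its second probe set separated the lines, at 10.05 to 10.17 against 8.47 to 9.05, and fell by 1.25 on the log2 scale. Without SThdh7/7 samples 1 and 2 the brightest probe set of Fen1 lost its call (difference -0.60, adjusted p = 0.090).

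Among genes of deoxynucleotide supply 4 of 5 fell, with a median difference of -1.26. Rrm2, the small subunit of ribonucleotide reductase, measured 12.43, 12.46, 12.47 and 12.43 in SThdh7/7 and 10.55, 10.64, 10.49 and 10.69 in SThdh111/111, a 3.62-fold fall. Its other 2 probe sets gave differences of -1.74 and -1.82. The large subunit gene Rrm1 measured 11.57, 11.58, 11.87 and 11.68 against 10.33, 10.32, 10.39 and 10.62, a 2.4-fold fall.

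Tk1, the cytosolic thymidine kinase of S phase, had the lowest difference of the 53 members, and was picked out after its values were seen. It measured 10.78, 10.66, 10.86 and 10.53 in SThdh7/7 and 7.22, 6.87, 7.54 and 7.84 in SThdh111/111, where 3 of 4 arrays were above the floor. With the lower array set to the floor the difference of Tk1, then a bound, was -3.30. Dut, which removes dUTP, measured 10.10, 10.11, 10.32 and 10.23 against 9.45, 9.40, 9.13 and 9.52, a 1.76-fold fall.

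Tyms, the thymidylate synthase, was measured at 7.76, 7.95, 7.42 and 7.67 in SThdh7/7 and at 7.21, 7.55, 7.15 and 6.72 in SThdh111/111. The lines overlapped near the floor, and the difference of -0.55 had an interval of -1.11 to 0.02 (adjusted p = 0.173). It was the 1 uncalled member of 9 whose interval at the brightest probe set held a 2-fold fall. A probe set annotated to Tyms together with a pseudogene was left out because it names more than 1 gene.

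Of the 6 regulators of S-phase entry 4 fell, and they differed in size. Cdk2, the kinase of cyclin E, measured 10.58, 10.36, 10.83 and 10.54 in SThdh7/7 and 9.72, 9.97, 9.71 and 9.52 in SThdh111/111, a 1.8-fold fall. Cyclin E2 (Ccne2) was at 9.16 ± 0.06 (SD, n = 4) in SThdh7/7 and above the floor on 1 of 4 SThdh111/111 arrays, with a difference of -2.10 against the floor as a bound. Cyclin E1 (Ccne1) was above it on 3 of 4, with a bound of -1.35, but its other probe set was not called (difference -0.58, adjusted p = 0.090).

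Of the E2F factors themselves, E2f1 had probe sets that disagreed and E2f3 overlapped between the lines. E2f1 measured 10.09, 9.84, 9.76 and 9.98 in SThdh7/7 and 9.38, 9.30, 9.22 and 9.46 in SThdh111/111, a 1.5-fold fall (adjusted p = 0.00087). Its other 2 probe sets were not called (differences -0.06 and 0.17), and the mean over the 3 was -0.16 (adjusted p = 0.607). E2f3 measured 8.46, 8.87, 8.91 and 9.14 against 8.66, 8.56, 8.90 and 8.27, with overlap (difference -0.25, interval -0.63 to 0.14). A second E2f3 probe set was not called either (difference -0.69, adjusted p = 0.112).

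Cdc25a, the phosphatase that activates CDK2, was likewise not called. It measured 9.10, 8.57, 8.22 and 8.45 in SThdh7/7 and 8.71, 8.44, 8.75 and 8.41 in SThdh111/111. The difference was -0.01, with an interval of -0.42 to 0.40. A second Cdc25a probe set above the floor was not called either (difference -0.51, adjusted p = 0.183). Chaf1b, a subunit of the chaperone CAF-1 that deposits histones on new DNA, measured 10.25, 10.53, 10.23 and 10.09 against 8.17, 7.79, 8.11 and 8.35, a 4.5-fold fall (adjusted p = 6.4e-08). A dimmer probe set of Chaf1b was not called (difference -0.55, adjusted p = 0.350).

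Across all probe sets of the members, 72 of the 109 kept were called lower, against 12.6% of all 41409 kept probe sets, and limma called 0 higher, against 9.87%, with 0 also at an unadjusted p under 0.05. The calls followed brightness. Of 92 probe sets with a mean at or above the floor 71 were called lower, and of 17 dimmer ones 1 was. Of 30 probe sets with a mean log2 intensity of 10 or more 28 were called lower, the other 2 being those of Gins4 and Rpa3. Of 39 members with several kept probe sets 17 had all of them called lower, and 7 of the 53 members had none called lower.

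**Figure D4:**
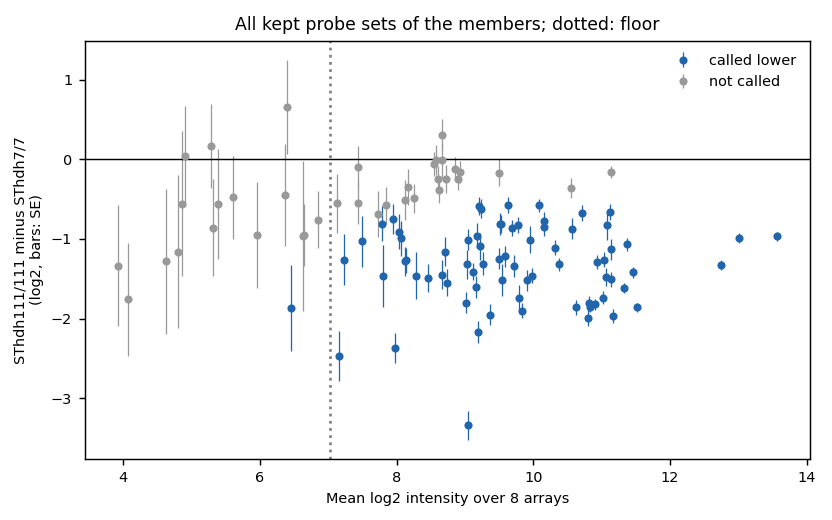
Difference of each of the 109 kept probe sets of the members (y axis, log2 intensity, SThdh111/111 minus SThdh7/7, bars the SE) against its mean log2 intensity over 8 arrays (x axis); blue points were called lower, grey points were not, and the dotted line is the floor. Error bars are wide left of the floor, where 1 of 17 was called, and 71 of 92 were called to its right.

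Genes that lie back to back with a member were described next. Start sites on opposite strands within 1000 bases, from the RefSeq windows, gave such a neighbour for 10 members. Of these 10 neighbours 2 fell and 8 were not called, with a median difference of -0.15. Over all named genes 15.9% were called lower, with a median of -0.09. The neighbours Gm15834 and Gm15728 lay near the floor, and the members Orc1 and Rpa3 were not called themselves. So few neighbours cannot show whether chromosomal place matters. Ufd1, next to Cdc45, measured 10.14 ± 0.13 and 10.16 ± 0.33 (SD, n = 4), and Ap4m1, next to Mcm7, 9.41 ± 0.24 and 9.28 ± 0.14, while both members fell. Slc25a40, next to Dbf4, fell by 1.08 on the log2 scale, and Smyd4, next to Rpa1, by 0.89. Differences between member and neighbour were not tested.

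Replication genes outside the member list were lower in part. Of 30 other replisome and licensing genes 19 fell and 3 rose (median difference -0.62). Over all named genes 15.9% were called lower and 13.1% higher. Calls in this list and in those that follow were not counted again with centred arrays. Top2a, the topoisomerase that untangles new chromosomes, fell by 1.75 on the log2 scale and Topbp1, an activator of the checkpoint and of the helicase, by 1.24. Top1 rose by 0.37 ± 0.09 (SE) and Orc5 by 0.47 ± 0.14. Orc3 was the other gene called higher (0.35 ± 0.12), and Orc4 fell by 0.40 on the log2 scale, so origin recognition subunits were called in both directions.

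The deoxynucleotide genes outside the member list were split. Of 11 measured 5 fell and 4 rose, with a median difference of -0.05. Dck, the cytosolic deoxycytidine kinase, fell from 10.76 ± 0.20 to 8.79 ± 0.13 (log2 intensity, SD, n = 4; difference -1.96), and the nucleoside diphosphate kinase gene Nme2 fell by 0.46 on the log2 scale. Samhd1, the enzyme that breaks down deoxynucleoside triphosphates, rose from 10.27 ± 0.08 to 11.30 ± 0.17 (difference 1.03 ± 0.09, SE, adjusted p = 1.3e-06). Cmpk1, a pyrimidine nucleotide kinase, rose by 0.68 ± 0.07 (SE). The remaining genes called higher, named after their values were seen, were Dguok and Tk2, the deoxynucleoside kinases of mitochondria, at 0.51 ± 0.10 and 0.41 ± 0.12 (SE).

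In purine and pyrimidine synthesis 9 of 17 measured genes fell, with a median difference of -0.33, against 15.9% of all named genes. Some of these falls were small, as for Adsl (difference -0.28) and Ctps (-0.33). Impdh1, of guanine nucleotide synthesis, fell by 1.56 on the log2 scale and Umps, which makes uridine monophosphate, by 0.86. Of 11 genes of chromatin replication 9 fell (median -0.92), among them the chromatin remodeller Hells (difference -1.59) and Dnmt1, the maintenance DNA methyltransferase (difference -0.93). Of 24 other genes of E2F, RB and S-phase control 14 fell (median -0.52). Those with the lowest adjusted p were the S-phase and mitotic kinase Cdk1, at a difference of -1.52, and cyclin A2 (Ccna2), at -2.04. The fitted difference of E2f8 was lower still (-2.83), with no SThdh111/111 array above the floor. Rb1 fell by 0.62 on the log2 scale, while E2f4 and Rbl2 were not called (differences -0.05 and 0.12).

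**Figure D5:**
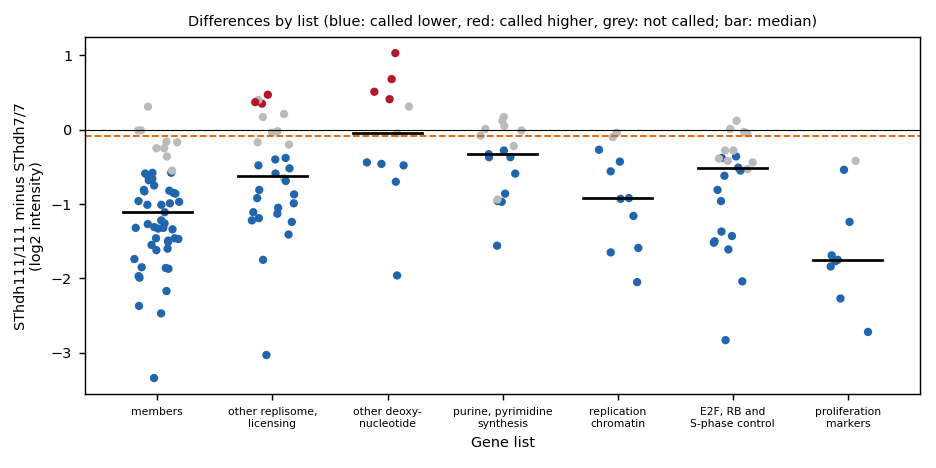
Differences (y axis, log2 intensity, SThdh111/111 minus SThdh7/7) of the 53 members and of 6 further lists (x axis), 1 point per gene, with the median as a bar and the median of all named genes as a dashed line at -0.09. Blue points were called lower, red higher and grey not called; red points appear among the other replisome genes (3) and the other deoxynucleotide genes (4).

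Markers of dividing cells moved with the members. Of 9 measured 8 fell, with a median difference of -1.75, and their summed intensity was 10967 to 12196 on SThdh7/7 arrays and 3428 to 3760 on SThdh111/111 arrays. The mitotic genes Birc5 and Cdc20 had differences of -2.27 and -1.84. The summed intensity of the members was 111849 to 119196 and 50519 to 54235. Beside these counts and those that follow, 15.9% of all named genes were called lower and 13.1% higher. Some cell type markers also differed between the lines: of 7 mesenchymal markers 5 rose, with a median difference of 2.17. Their sums were 22719 to 23979 and 92539 to 107915. Of 5 measured neural progenitor markers 3 fell (median -1.38), with differences of -1.38 for Nes and -2.06 for Sox2, and with Pax6 above the floor on all SThdh7/7 arrays and on no SThdh111/111 array. Their sums were 48563 to 54486 and 46257 to 50303, of which Vim, at 15.50 in both lines (log2 intensity, difference 0.00), made up the largest share. Sums for 6 microglial and haematopoietic markers were 2004 to 2353 and 1218 to 1404, with a median difference of 0.54. Among them Cd68 fell (difference -1.75) and Csf1r rose (0.49), both above the floor on all arrays, and Ptprc, Aif1 and Itgam were below it on all arrays. Of 6 astrocyte markers 2 rose (Slc1a3 by 1.82 and Gja1 by 0.72) and 1 fell (Aldh1l1, difference -2.47). Of 9 measured markers of striatal projection neurons 2 rose (Penk by 2.96 and Foxp1 by 0.29) and 1 fell (Rgs9, difference -0.71). Of 7 pan-neuronal markers 2 fell, Map2 (difference -0.52) and the dim Stmn2 (-1.49). In the small astrocyte and microglial lists 16.7% each were called lower, and in the striatal list 11.1%, near the share of all named genes. The part of the share of dividing cells or of cell type in the differences of the members was not tested.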

How the data were processed

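Total RNA of 4 samples of each line was labelled with biotin and hybridised to Affymetrix mouse arrays, per the labels. The authors deposited 1 linear intensity per probe set and array; GCRMA is the only tool in the submitters' processing notes, but the deposited intensities have a 2% trimmed mean of 500 on every array, a form of MAS5 signals, so the tool is not settled. Log2 was taken. After 64 control probe sets were left out, 41409 of 45037 with a log2 of at least 4 on at least 4 arrays were kept. Names came from the platform's table, updated to GRCm38.p6 (34945 with 1 gene, 932 several, 9160 none). All 53 measured members were at 4 or more on all 8 arrays. Differences were fitted over the 8 arrays in limma 3.58.1 (R 4.3.3; lmFit, then eBayes allowing a trend with intensity). Two-sided p-values were adjusted by Benjamini-Hochberg across kept probe sets, and calls taken under 0.05. The floor is the highest array's 95th percentile over 27 bacterial controls; folds against it are "at least". On simulated data from 41409 probe sets the fit recovered 33% of 2-fold and 45% of 4-fold changes, 79.2% of bright 4-fold ones. That simulation changed 100 probe sets by each size, dim ones included, while 5200 were called lower in the data. Its shares therefore do not give the power for the members. Values per sample are given for up to 3 brightest members of each role and all uncalled ones; of other lists up to 2 genes each way, those of lowest adjusted p, are named, and others are named after their values were seen. Members and lists were chosen with earlier results of these data known. Figures were drawn with matplotlib 3.10.9.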

Additional observations from a re-analysis of the deposited data

Results flagged for a closer look

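Among 106 sets of 4 arrays (53 members in each line), 3 held a sample far from the other 3 by Dixon's criterion, where chance alone gives about 1 in 20. Mcm4 measured 10.09 in SThdh111/111 sample 3 and 10.47 to 10.48 in the others. Rfc5 measured 10.46 in SThdh7/7 sample 1 and 10.77 to 10.82 in the others. Pole measured 5.94 in SThdh7/7 sample 1, below the floor, and 7.83 to 7.93 in the others. The falls of Mcm4 and Rfc5 kept their calls in each fit with 1 array left out.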

How the results depend on the processing

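Across 21 alternatives the members called lower numbered 36 to 45 and limma called 0 higher in each of them; the 36 came from 47 members left when probe sets ending in _x_at, _s_at or _a_at were left out, which also left 71 member probe sets, 41 of them lower. The member median was -0.96 after centring and -1.01 with low values set to the floor. With the mean of all probe sets of a gene it was -1.03. Both without SThdh7/7 samples 1 and 2 and with a term for them it was -1.24. Between arrays of the same line the SD of the median over members was 0.07. Leaving out 1 array gave a median difference of -1.17 to -1.06, 43 to 45 members lower and 70 to 72 probe sets lower. Of the 44 called members 32 kept the call in every alternative tried. Further calls were lost without an intensity trend (Gins1, Pole and Fen1), with the mean of all probe sets (Cdc45, Rfc1 and Pola2) and without _x_at, _s_at and _a_at probe sets (Mcm10, Ccne1 and E2f1). With the replicate block 45 members and 73 probe sets were lower, Rpa3 being added. Deviations of same-numbered samples correlated at -0.0144 to 0.00903, and not every sample correlated best with its own number. The labels do not say what a shared number stands for. Correlations over all kept probe sets, many of them dim, cannot exclude that same-numbered samples were handled together. Low signal limits the 17 probe sets below the floor.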
